A study of Homo sapiens with 2 samples.

Results

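The 10 genes described here encode 6 desmosome proteins, JUP, DSP, PKP2, PKP3, DSG2 and DSC2, and 4 keratins of simple epithelia, KRT7, KRT8, KRT18 and KRT19. They were taken by gene symbol, with every probe set that the platform annotation gives to 1 of these symbols alone, which made 20 probe sets of the 54613 on each array that are not controls. Among the 19775 genes with a probe set, 12375 were bright enough to be kept, and all 10 were among them, with 17 of their 20 probe sets. Of these 20, 16 exceeded background on each array, and 13 have names that mark possible shared targets. The RNA came from A549, an established line of human lung carcinoma cells. The culture called TGF-β received 1 ng/ml of the cytokine and was harvested at 12 h. The culture called control was grown without it. There was 1 array per culture, so no value below has a replicate error, no test was run, and their number sets the limit of precision. What the line can stand for is limited too, since it is a carcinoma line in culture and not lung tissue.

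Desmosomes are the spot-like junctions that tie the keratin filaments of neighbouring epithelial cells together. Their cadherins, the desmogleins and desmocollins, bind across the gap between cells. Inside the cell, plakoglobin and the plakophilins sit on the cadherin tails, and desmoplakin joins that plaque to the keratins. Keratin filaments are built from pairs of a type I and a type II chain. KRT8 with KRT18 is the pair that nearly all simple epithelia make, KRT7 is a further type II chain of glandular and ductal cells, and KRT19 is a type I chain without the usual tail. Loss of such epithelial genes is commonly looked for when TGF-β drives an epithelial-to-mesenchymal transition.

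The values are MAS5 signals, array intensities on a linear scale, and a fold change is the TGF-β signal over the control signal. A signal counted as background when it did not exceed the highest of 27 probe sets for Bacillus subtilis transcripts, which was 56.6 on the TGF-β array and 45.8 on the control array. Genes were called higher or lower at 2-fold, a rule of size. Of all kept genes, 3.94% were at least 2-fold higher and 2.96% at least 2-fold lower, and their median log2 fold change was -0.03. The 18 probe sets for spiked-in transcripts had a median log2 fold change of 0.14, and no value was corrected for it. GAPDH signals from the 3′ end over those from the 5′ end, a sign of RNA integrity, gave 0.957 with TGF-β and 0.945 in the control, and those of ACTB gave 1.83 with TGF-β and 1.98 in the control. The epithelial label was checked on EPCAM, CDH1, CLDN7 and ESRP1. EPCAM, an adhesion molecule of epithelial cells, read 1616 with TGF-β and 2176 without it, CLDN7, a claudin of tight junctions, read 98.7 with TGF-β and 78.2 in the control, and ESRP1, a splicing factor of epithelial cells, was under background on both. The summed signal of the 3 kept epithelial markers was 2561 with TGF-β and 4206 in the control, with EPCAM and CDH1 lower and CLDN7 1.26-fold higher. Among markers of other cells, at least 1 probe set was above background on an array for 4 of 6 measured alveolar type II genes, 1 of 6 keratinocyte genes, 2 of 5 fibroblast genes, 1 of 4 endothelial genes and 2 of 3 leukocyte genes. PTPRC, CDH5, PDGFRA and PDGFRB, from the leukocyte, endothelial and fibroblast lists, were under background on both arrays in every probe set. Others of these lists were not. CD14 read 63.0 with TGF-β and 190 in the control, and CD3E read 74.8 with TGF-β and 48.8 in the control. The brightest PECAM1 probe set read 65.4 with TGF-β and 56.4 in the control. THY1 (82.5) and DCN (47.5) exceeded background in the control only. The part of these marker levels in the results below was not tested.

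Among the desmosome genes, plakoglobin, desmocollin 2, desmoplakin and desmoglein 2 had higher signals with TGF-β, and the plakophilins PKP2 and PKP3 had lower ones. Only JUP was called, so 1 of the 10 genes was at least 2-fold higher and 0 of 10 at least 2-fold lower, against the 3.94% and 2.96% of all genes. All 10 had both signals above background, and of the 11513 genes of which that holds, 2.94% were at least 2-fold higher and 1.35% at least 2-fold lower. The median log2 fold change was 0.47 over the 6 desmosome genes and 0.20 over the 4 keratins. At 1.5-fold, a limit chosen after the values had been seen, JUP, DSC2 and KRT7 were higher and KRT19 was lower, while 9.16% of all genes were higher and 9.08% lower at that limit. With so few members these counts are a description and do not set the genes apart from the rest.

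**Figure D1:**
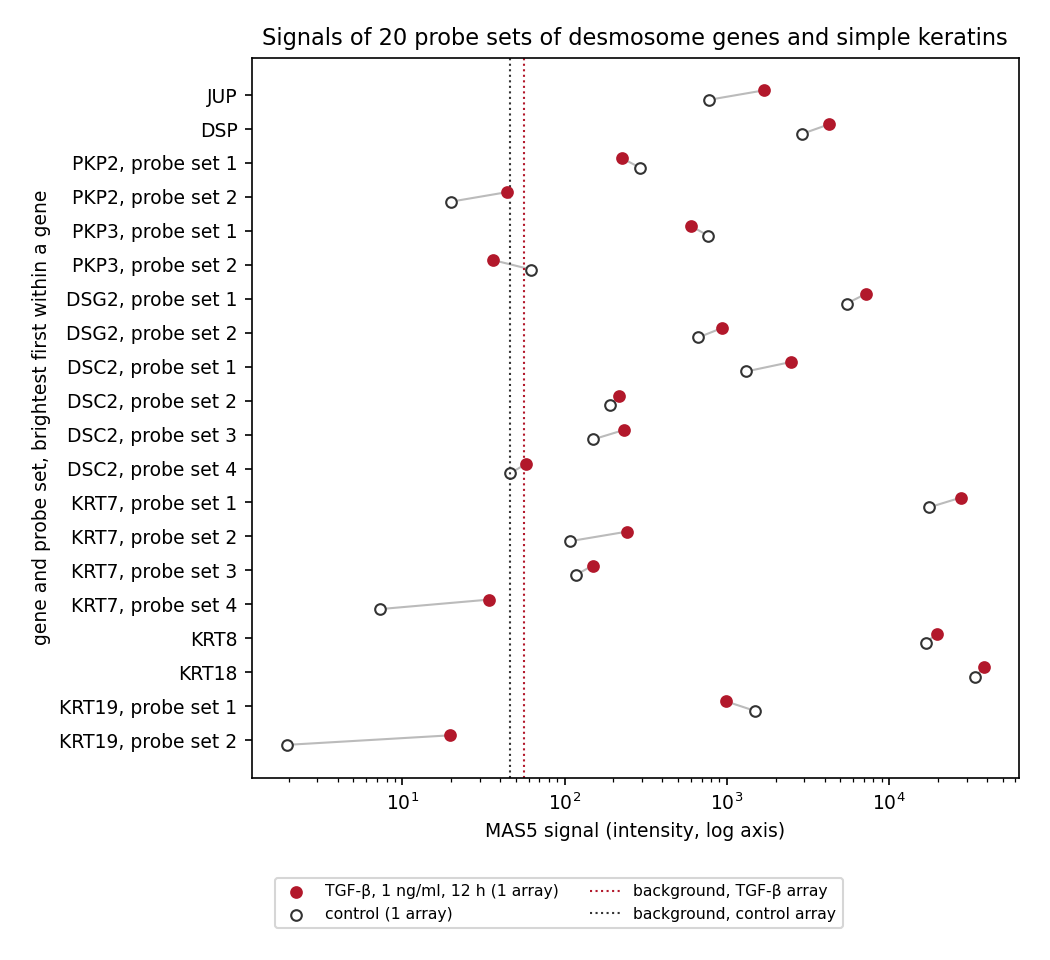
MAS5 signal on a log axis (x) of each of the 20 probe sets (y), with TGF-β as red points and in the control as open points, 1 array each, with the brightest probe set of a gene listed first. Dotted lines mark the background of 56.6 on the TGF-β array (red) and 45.8 on the control array (black). JUP, DSP and all probe sets of DSG2 and DSC2 lie to the right with TGF-β, and the first probe sets of PKP2, PKP3 and KRT19 lie to the left.

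JUP encodes plakoglobin, an armadillo-repeat protein of the desmosome plaque that also occurs in adherens junctions. Its only probe set read 1698 with TGF-β and 774 in the control, which is 2.19-fold higher, a log2 fold change of 1.13. For scale, the 500 kept probe sets closest to it in brightness had a spread of 0.27 in log2 fold change, and 2% of them were as high. The spread is over probe sets of the same arrays and stands in for no replicate. The name of this JUP probe set ends in _s_at, the Affymetrix mark for probes that can match several transcripts, so no JUP value is left without such probe sets.

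The cadherins DSC2 and DSG2 were both higher in every probe set. The brightest DSC2 probe set read 2497 with TGF-β and 1319 in the control, 1.89-fold higher. Others of DSC2 read 234 with TGF-β and 150 in the control (1.56-fold), and 218 against 191 (1.14-fold). The dimmest was barely above background, at 58.1 with TGF-β and 46.2 in the control. The 4 DSC2 probe sets thus pointed the same way but differed in size, and by their median the log2 fold change of DSC2 was 0.49, against 0.92 by the brightest. DSG2, the desmoglein found in simple as well as stratified epithelia, read 7154 with TGF-β and 5479 in the control by its brighter probe set, a 1.31-fold difference. Its dimmer probe set read 935 with TGF-β and 666 in the control, 1.40-fold higher. Both values of DSG2 were close to each other and well under 2-fold. Among the 500 probe sets nearest in brightness, 3.8% were as high as DSC2 and 7% as high as DSG2.

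DSP encodes desmoplakin, the plakin that fastens keratin filaments to the plaque. Its 1 probe set read 4268 with TGF-β and 2919 in the control, 1.46-fold higher, with a log2 fold change of 0.55. Probe sets of like brightness had a spread of 0.21, and 5.6% of the nearest probe sets were as high. This probe set has no mark of shared targets.

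The plakophilins PKP2 and PKP3 are armadillo-repeat proteins that gather desmoplakin and the cadherins at the plaque. PKP2 read 226 with TGF-β and 292 in the control, 1.29-fold lower. PKP3 read 603 with TGF-β and 765 in the control, 1.27-fold lower. These log2 fold changes, -0.37 for PKP2 and -0.34 for PKP3, were close to the spread of probe sets of like brightness, 0.45 and 0.30, of which 20% were as low as PKP2 and 14.6% as low as PKP3. The second PKP3 probe set was at background with TGF-β, at 36.2, and read 62.4 in the control, at least 1.10-fold lower. The second PKP2 probe set was under background on both arrays and gives no fold. RefSeq lists 1 pseudogene named for PKP2, whose share in its signals was not tested. PKP2 and PKP3 therefore differed in direction from the other desmosome members. Their own differences were no larger than is common among probe sets of these arrays. Of their relatives described below, PKP1 was higher with TGF-β, with a control signal at background, and PKP4 was 1.12-fold lower.

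Because JUP, DSC2, DSP and DSG2 had higher signals together, their start regions are shown, from RefSeq on GRCh38.p14, each with 250 bases before the start and 50 after it. Windows were given for 5 of the 10 genes, JUP, DSP, DSG2, DSC2 and KRT8, and JUP and DSC2 have a pair each. Capitals mark the E-box letters CACCTG or, on the other strand, CAGGTG, which repressors of the SNAI and ZEB families are known to bind. These letters and the other motifs below were chosen after the windows had been seen.
JUP promoter, chr17:41785927-41786226, minus strand: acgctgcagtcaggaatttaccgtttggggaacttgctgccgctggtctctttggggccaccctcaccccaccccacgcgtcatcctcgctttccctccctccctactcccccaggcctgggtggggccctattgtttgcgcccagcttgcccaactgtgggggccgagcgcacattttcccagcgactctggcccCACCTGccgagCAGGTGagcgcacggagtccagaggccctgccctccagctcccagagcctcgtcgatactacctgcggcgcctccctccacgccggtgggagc
DSC2 promoter, chr18:31102372-31102671, minus strand: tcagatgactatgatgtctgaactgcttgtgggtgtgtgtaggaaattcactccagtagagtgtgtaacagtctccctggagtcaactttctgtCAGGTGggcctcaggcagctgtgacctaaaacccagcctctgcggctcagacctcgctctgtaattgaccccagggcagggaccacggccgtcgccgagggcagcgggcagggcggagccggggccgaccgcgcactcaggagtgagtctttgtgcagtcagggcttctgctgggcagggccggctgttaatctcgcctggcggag
DSP promoter, chr6:7541421-7541720, plus strand: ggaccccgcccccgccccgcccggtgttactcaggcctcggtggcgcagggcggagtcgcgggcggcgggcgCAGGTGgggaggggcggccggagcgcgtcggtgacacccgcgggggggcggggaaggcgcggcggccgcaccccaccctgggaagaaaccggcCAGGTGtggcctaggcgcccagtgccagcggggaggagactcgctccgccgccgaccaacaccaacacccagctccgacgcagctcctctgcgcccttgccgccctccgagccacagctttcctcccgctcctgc
DSG2 promoter, chr18:31497927-31498226, plus strand: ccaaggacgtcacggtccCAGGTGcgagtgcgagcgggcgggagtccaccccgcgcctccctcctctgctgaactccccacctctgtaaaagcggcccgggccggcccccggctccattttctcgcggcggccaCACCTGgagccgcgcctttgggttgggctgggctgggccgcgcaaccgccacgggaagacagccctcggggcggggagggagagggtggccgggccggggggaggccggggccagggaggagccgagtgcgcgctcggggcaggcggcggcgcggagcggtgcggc

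The JUP window shown holds an E-box on each side of a short gap, 54 and 43 bases before the start, and the other JUP window holds none. DSC2 has 1 match 156 bases before the start, in the window shown. DSP has matches 178 and 85 bases before its start and DSG2 has them 232 and 116 bases before. The window of KRT8, which was 1.17-fold higher with TGF-β, held none, and neither did the other DSC2 window. In all, 4 of the 7 windows held these letters, and 20.6% of the 35116 windows of all genes did. That share was not matched for base content. G and C made up 66.7% of the JUP window shown, 60.7% of that of DSC2, 77% for DSP and 76.7% for DSG2. No window was given for PKP2, PKP3 or KRT19, the members that were lower, so higher and lower members could not be compared. The letters CAGAC or GTCTG, which contain the core that Smad proteins bind, occurred in 2 of the 7 windows, those of DSC2 (the one shown) and KRT8, against 45.3% of all windows. TGANTCA, the AP-1 motif, was in 0 of the 7 and in 7.71% of all windows. A match is a description of the sequence, and binding was not measured.

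Among the keratins, KRT7 was higher, KRT19 was lower and the KRT8 and KRT18 pair differed little. KRT7 read 27547 with TGF-β and 17728 in the control by its brightest probe set, 1.55-fold higher. Probe sets this bright were on balance higher with TGF-β, with a median log2 fold change of 0.13 over the nearest 500, and 0.6% of them were as high as KRT7. Another KRT7 probe set read 242 with TGF-β and 108 in the control, 2.23-fold higher, and a further one read 149 with TGF-β and 117 in the control, 1.27-fold higher. The fourth was under background on both arrays. All 3 measured KRT7 probe sets were thus higher with TGF-β, and whether the gene passes 2-fold turns on which of them stands for it.

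KRT8 and KRT18, the type II and type I chains of the same filament, had 1 probe set each. KRT8 read 19630 with TGF-β and 16817 in the control, 1.17-fold higher. KRT18 read 38248 with TGF-β and 33810 in the control, 1.13-fold higher. The log2 fold changes of 0.22 and 0.18 lay 0.14 and 0.03 above the median of the 500 probe sets of like brightness, whose spread was 0.13 and 0.10, so neither difference stands out at this end of the scale. KRT18 held place 42 among the 54613 probe sets on each array, and when both arrays were given the same distribution (quantile normalization) its log2 fold change was 0.00. The highest signal of any probe set was 46258 on the TGF-β array and 40815 on the control array, so KRT18 lies near the top of the range, where saturation was not tested. Both probe sets end in _x_at, the mark for probes that can bind unrelated transcripts. RefSeq lists 52 pseudogenes named for KRT8 and 68 named for KRT18, and their share in the signals cannot be told apart from that of the genes.

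KRT19 read 991 with TGF-β and 1492 in the control, 1.51-fold lower (log2 fold change -0.59). Probe sets of like brightness had a spread of 0.27, and 3.8% of the nearest 500 were as low. RefSeq lists 5 pseudogenes named for KRT19, whose share in these signals was not tested. The second KRT19 probe set was under background on both arrays. By brightest probe sets KRT19 was thus the member with the largest decrease, and KRT7 and KRT19, both companions of the KRT8 and KRT18 pair, pointed in opposite directions.

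**Figure D2:**
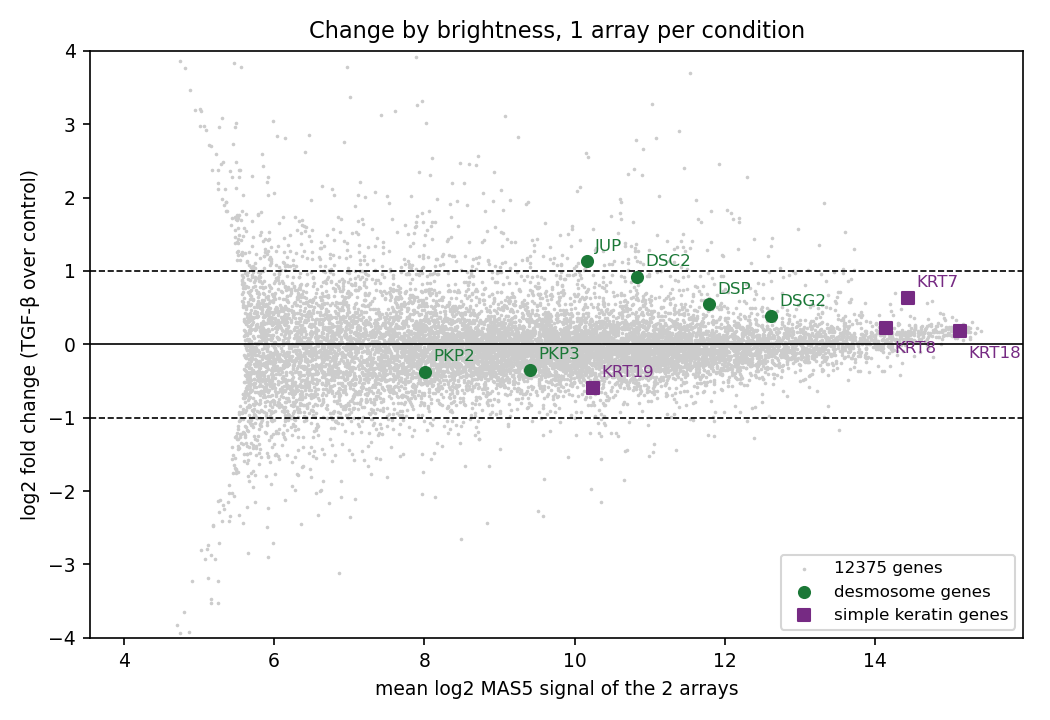
Log2 fold change of TGF-β over control (y) against the mean log2 MAS5 signal of the 2 arrays (x) for 12375 genes (grey), with the desmosome genes as green circles and the simple keratins as purple squares. Dashed lines mark 2-fold, and 15 genes lie outside the range drawn. JUP is above the upper line, DSC2 just under it, and KRT8 and KRT18 lie in the narrow band of bright genes.

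The members just inside and just outside the 2-fold limit were JUP at 2.19-fold and DSC2 at 1.89-fold. Under the 10 alternatives of processing, JUP had a log2 fold change between 1.08 and 1.18 wherever it had a value. The ranges were 0.49 to 0.97 for DSC2, 0.54 to 0.60 for DSP and 0.36 to 0.49 for DSG2, all above 0. PKP2 lay between -0.38 and -0.31 and PKP3 between -0.79 and -0.30, where the lower end comes from the probe set at background. Directions of the desmosome genes were the same wherever they had a value, but the settings could hardly change them. JUP and DSP have no second probe set, and that of PKP2 was under background, so the same signals were used again. Without probe sets of shared targets, JUP, PKP2 and PKP3 had no value. KRT7 lay between 0.52 and 1.16, KRT8 between 0.13 and 0.27, KRT18 between 0.00 and 0.23 and KRT19 between -0.59 and -0.54.

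**Figure D3:**
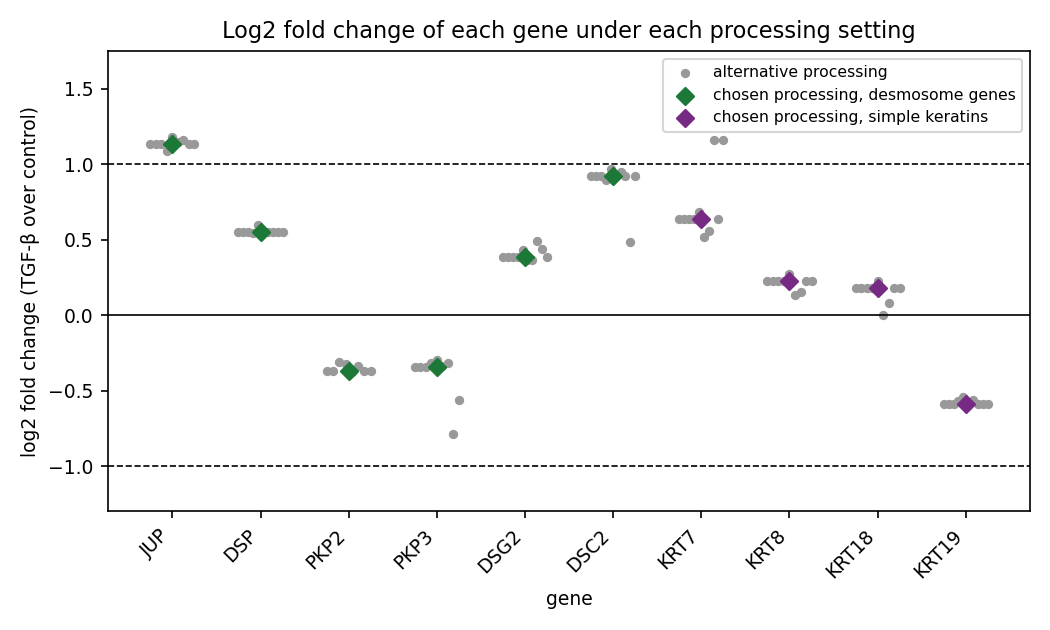
Log2 fold change of TGF-β over control (y) of each gene (x), with the chosen processing as diamonds and each alternative as a grey point. Dashed lines mark 2-fold. KRT7 has alternatives above and below the upper line, and KRT18 reaches 0.00 with quantile normalization.

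Other genes of desmosomes and keratin filaments were set beside the members from lists chosen with results of these data known. Of 7 further desmosome genes, 3 were kept and 2 had both signals above background, neither of them 2-fold changed. DSC3, a desmocollin of stratified epithelia, read 138 with TGF-β and 111 in the control, 1.24-fold higher. PERP, a membrane protein needed for desmosome assembly, read 24604 with TGF-β and 17622 in the control by its brightest probe set, 1.40-fold higher. Another PERP probe set was 1.25-fold higher. The measured one without a mark of shared targets read 264 with TGF-β and 276 in the control, 1.04-fold lower. PKP1, the plakophilin of stratified epithelia, read 84.3 with TGF-β and was at background in the control, at 29.1, so it was at least 1.84-fold higher. DSC1, DSG1, DSG3 and DSG4, further cadherins of stratified epithelia, were too dim to be kept. By brightest probe sets, no gene of this list with both signals above background was lower with TGF-β. That depends on the list, since PPL (periplakin), counted among the plakins below, was lower. It read 73.3 with TGF-β and 120 in the control, 1.64-fold lower.

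Of 6 further keratins, simple ones and hair-type ones made by glandular cells, 4 had a probe set and 2 were kept. KRT20, a type I keratin of the gut, read 72.6 with TGF-β and 160 in the control, 2.21-fold lower, and KRT80 read 3722 with TGF-β and 2708 in the control, 1.37-fold higher. Of 15 keratins of stratified epithelia, 11 had a probe set, 3 were kept and 1 was at least 2-fold lower. That was KRT4, a type II keratin of stratified mucosa, which read 139 with TGF-β and 464 in the control, 3.34-fold lower. KRT10 read 7963 with TGF-β and 9252 in the control, 1.16-fold lower. KRT6A, KRT6B, KRT6C, KRT17, KRT81 and KRT86 were not analysed here. Keratins 2-fold lower with TGF-β thus lay outside the 4 simple keratins, and both had control signals under 500.

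**Figure D4:**
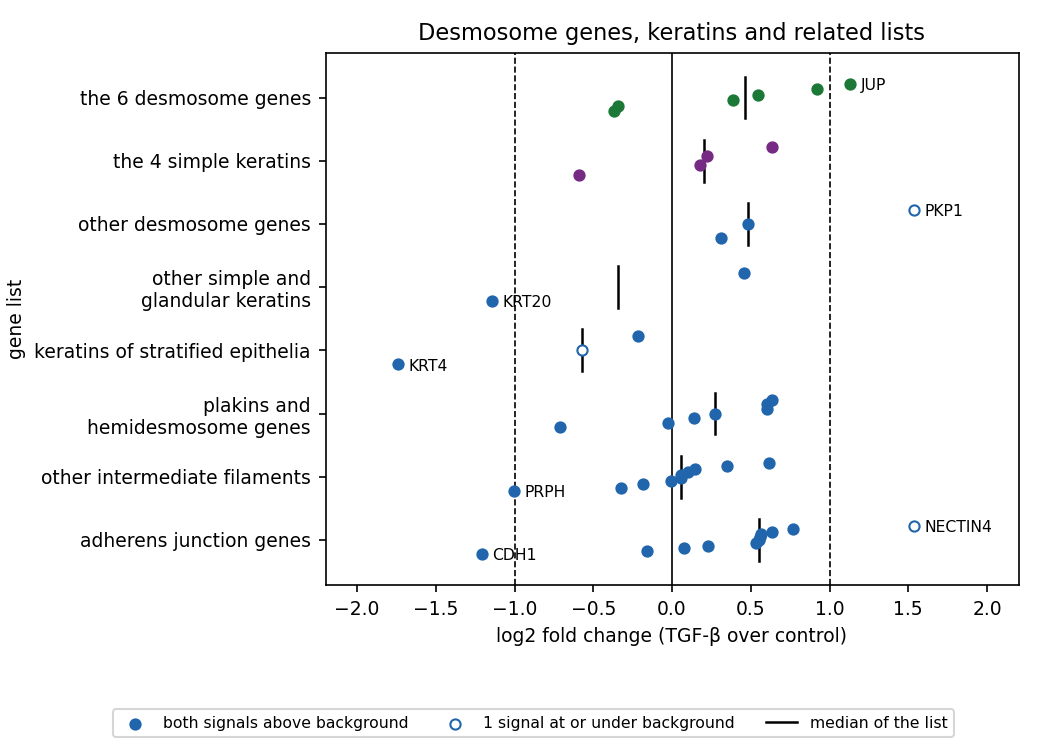
Log2 fold change of TGF-β over control (x) of the kept genes of each list (y), 1 point per gene, with a black bar at the median of the list. Dashed lines mark 2-fold, open points have 1 signal at background, and genes at or past 2-fold are named. JUP is the only named gene among the 10 members.

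Of 9 genes of plakins and hemidesmosomes, the junctions that anchor keratins to the basement membrane, 7 were kept and 0 passed 2-fold in either direction, with a median log2 fold change of 0.27. CD151, a tetraspanin of hemidesmosomes, read 4062 with TGF-β and 2671 in the control, 1.52-fold higher. Of 14 other intermediate filament genes, 10 were kept, with a median of 0.06, and PRPH alone reached 2-fold, at 73.5 with TGF-β and 147 in the control, a limit it missed when the arrays were rescaled. VIM, the vimentin of mesenchymal cells, read 30220 with TGF-β and 23706 in the control, 1.27-fold higher, where probe sets of like brightness had a median log2 fold change of 0.15. Of 15 adherens junction genes, 11 were kept, with a median of 0.55. CDH1, the E-cadherin of epithelial adherens junctions, read 846 with TGF-β and 1952 in the control, 2.31-fold lower. CTNNB1, β-catenin and the closest relative of plakoglobin, read 13833 with TGF-β and 9385 in the control, 1.47-fold higher. CDH1 was thus lower on the same arrays on which DSG2 and DSC2 were higher. NECTIN4 was at least 2.11-fold higher, with a control signal at background.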

How the data were processed

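RNA of A549 cells, treated with TGF-β (1 ng/ml, 12 h) or left as control, was hybridized to Affymetrix arrays, 1 for each. The intensity values deposited by the authors are MAS5 signals, 1 per probe set (MAS5 is named in the submitters' processing notes, without a version), and their mean after trimming 2% at each end was 500 on both arrays. Its other parameters were not given in the sources used here.

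Fold changes were computed with Python 3.11.15, numpy 2.4.6, pandas 2.3.3 and statsmodels 0.14.6, and plots with matplotlib 3.10.9. Probe sets with 1 gene symbol (41091) were used, with symbols updated through RefSeq. Those with several symbols (1801) or none listed (11721) were left out. Probe sets were kept when their mean over both arrays reached 48.7, the median, and the brightest represented its gene. Spread is the median absolute deviation, times 1.48, over the 500 kept probe sets closest in brightness. Calculations were tested on simulated data. Members and lists were chosen with earlier results of these data known. The genes named are all members, genes of each list past 2-fold above background, the brightest gene of each list, CTNNB1, CDH1 and VIM. Others, such as PKP1 and NECTIN4, were named after their values were seen. The alternatives were no filter, a filter at the 75 percentile (349), a floor at background, an offset of 50, equal medians, quantile normalization, loess (span 0.3), taking the most changed probe set or the median of a gene's probe sets, and no probe sets named _s_at, _x_at or _a_at. The 1.5-fold rule was added after seeing the data. With 1 array per group there is no test, no interval and no p-value.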

Additional observations from a re-analysis of the deposited data

How the results depend on the processing

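The count of 1 member at least 2-fold higher was 2 (JUP and KRT7) with the most changed probe set and 3 (JUP, DSC2 and KRT7) with the 1.5-fold rule, and the count of 0 members at least 2-fold lower was 1 (KRT19) with the 1.5-fold rule. Under the other alternatives both counts were the same, but without probe sets of shared targets only 5 members had a value and the 1 past 2-fold was KRT7, not JUP. The median log2 fold change lay between 0.45 and 0.55 for the desmosome genes and between 0.07 (quantile normalization) and 0.28 for the keratins. Among the values of single genes, of the lists and of the median of all genes, 195 were the same, 27 moved and 2, both of KRT7, newly passed 2-fold. In this tally, same means that a log2 fold change differed by no more than the spread, or a count by no more than 1.5-fold. PKP3 at -0.56 by the median of its probe sets, against -0.34, thus counted as the same. Genes with 1 kept probe set repeat their value under several settings, so the tally measures no replication. Outside the members, CDH1 and KRT4 had no value without probe sets of shared targets, and KRT4, KRT20, PRPH, PKP1 and NECTIN4 had none with the filter at the 75 percentile. With the offset of 50, KRT20 and PRPH were less than 2-fold lower and PKP1 and NECTIN4 less than 2-fold higher, PKP1 also with the floor at background and PRPH also with equal medians, quantile normalization and loess. The median over all genes moved by less than 0.1 under every scaling. PKP2 had no value with the filter at the 75 percentile. Signal over background limits the dim probe sets: 3 of the 20 were at background on both arrays and 1 on the TGF-β array. How the values vary between cultures is not known. No paired analysis was possible because each group had 1 array.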

Other observations

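The adherens junction genes are described here after their values had been seen. Of the 10 with both signals above background, 8 were higher with TGF-β and 2 were lower, where 5341 of all 11513 such genes were higher and 6172 lower. The plakin and hemidesmosome genes leaned the same way, with 5 higher and 2 lower, as did the desmosome members with 4 and 2, so the lean is not particular to this list. NECTIN3, a nectin that binds across the junction, read 1385 with TGF-β and 812 in the control (1.71-fold), and CDH2, the N-cadherin, 4418 with TGF-β and 2843 in the control (1.55-fold). The cytoplasmic partners differed by like amounts, with VCL (vinculin) 1.48-fold, AFDN (afadin) 1.47-fold and CTNNA1 (α-catenin) 1.45-fold higher. CDH1 was the only kept gene of this list at least 2-fold lower, and PKP4, a relative of the plakophilins, was 1.12-fold lower, at 2224 with TGF-β and 2483 in the control. None of these differences has a replicate, and the difference between CDH1 and its partners was not tested.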
